A study of Mus musculus with 80 samples.

Results

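At the 3′ splice site of exon 3 of *Ptbp1*, editing of the acceptor adenine with *Sp*G-ABE8e was 36.2 ± 1.59% of reads (SD, n = 3), against 2.20 ± 0.215% with *Sp*G-ABEmax and 0.214 ± 0.146% in cells that received only the sgRNA. These are the 9 samples labelled with sgRNA 2, of 80 samples in the whole series, and they form 3 groups of 3. They were selected by their labels alone. All 9 are genomic DNA of Hepa1-6 cells, a hepatoma line from a C57L mouse, after lipofection with 400 ng of total DNA and 0.5 µl of reagent. The first group received the sgRNA with *Sp*G-ABE8e, the second the sgRNA with *Sp*G-ABEmax (ABE in the labels), and the control group the sgRNA with no editor. Hepa1-6 is a tumour line in culture, no selection of transfected cells is described, and the DNA of a culture was read as 1 pool. The design text speaks of 3 biological replicates, and the study describes each as an experiment of its own.

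An adenine base editor joins a Cas9 that cuts only 1 strand to a deaminase that turns adenine into inosine, which is read as guanine. ABEmax carries an earlier laboratory-evolved deaminase, and ABE8e one evolved further for faster deamination. *Sp*G is a Cas9 variant that accepts a PAM of the form NGN in place of NGG. Nearly all introns end in AG, the dinucleotide that the splicing machinery reads as the 3′ splice site, so A-to-G editing of its adenine removes the acceptor. PTBP1 is an RNA-binding protein that binds pyrimidine-rich RNA and represses the inclusion of many exons, those used in neurons among them. The comparison asks how far the choice of deaminase changes the edit, and its by-products, at a site with a non-NGG PAM.

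In the mouse build GRCm39, *Ptbp1* (ENSMUSG00000006498.18) spans chr10:79690261-79700605 and is read from the plus strand. Exon 3 of the transcript ENSMUST00000172282.8, which has 14 exons, is chr10:79694586-79694658. It is 73 bases long, which leaves 1 base over after whole codons. Of 30 annotated transcripts, 24 use this acceptor. The deposited window of 40 bases, chr10:79694569-79694608, holds 17 bases of intron and 23 bases of exon. Below are the protospacer with its PAM (capitals mark the target adenine and the PAM), the window with the acceptor dinucleotide in capitals, the window with all 5 adenines in capitals, and the A6G alleles found in all 3 *Sp*G-ABE8e samples, with the changed bases in capitals.
Protospacer and PAM: ttctcAgcggggatccgacgAGC
Window, acceptor: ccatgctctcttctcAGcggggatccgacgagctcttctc
Window, adenines: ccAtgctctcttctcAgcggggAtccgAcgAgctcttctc
A6G allele: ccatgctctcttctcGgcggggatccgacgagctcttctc
A6G and A13G allele: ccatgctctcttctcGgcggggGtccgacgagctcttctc

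The protospacer is on the plus strand, chr10:79694579-79694598, and the PAM is AGC at chr10:79694599-79694601. Positions are counted from 1 at the 5′ end of the protospacer, those before it run from -10 to -1, and those after it from 21 to 30. A6G names the adenine at position 6 read as guanine. This adenine, at chr10:79694584, is the second-last base of the intron, and position 8 is the first base of exon 3. All 10 bases from position -5 to 5 are pyrimidines, so the target is the first purine after a pyrimidine tract. The other adenines are at -8 in the intron, at 13 and 18 in the exon part of the protospacer, and at 21 in the PAM. A13G keeps the glycine of its codon (G15G), whereas A18G and A21G would give D17G and E18G. The next AG downstream is at positions 21 and 22, and its guanine lies 15 bases after that of the acceptor.

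The samples held 1680, 2228 and 1854 reads with *Sp*G-ABE8e, 2244, 2276 and 1678 reads with *Sp*G-ABEmax, and 2226, 2327 and 2935 reads in the controls, each in the order of replicates 1 to 3. At this depth a count of 0 allows a share of up to 0.102% to 0.179% of a sample's reads. Intervals below are Wilson 95% intervals. Like these limits, they reflect nothing but counting error. No merging of reads by molecular identifiers is described, so copies of 1 molecule by PCR may count more than once. The tests are two-sided exact permutation tests over samples, in which 3 samples against 3 cannot give a p below 0.1. None of these comparisons of 3 with 3 can therefore pass a threshold of 0.05. A p here gives only how the difference ranks among all arrangements of these samples, so every pair of groups without overlap gets 0.1. The comparisons of gains between sites, given last, exchange the editor labels within each site and rest on more arrangements. Where the editors separate in the same direction at both sites, these too cannot give a p below 0.1. They can give smaller values where the directions are opposite.

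The target edit was the main product of both editors. With *Sp*G-ABE8e, A6G was in 605 of 1680, 772 of 2228 and 701 of 1854 reads, or 36.0%, 34.6% and 37.8%. With *Sp*G-ABEmax it was in 54, 45 and 37 reads, or 2.41%, 1.98% and 2.21%. In the controls it was in 8, 5 and 2 reads, or 0.359%, 0.215% and 0.0681%. No group overlapped another, and the lowest *Sp*G-ABE8e interval began at 32.7% while the highest *Sp*G-ABEmax interval ended at 3.13%. The difference between the editors was 34.0 percentage points, a ratio of means of 16.46 (exact permutation p = 0.1). *Sp*G-ABEmax exceeded the controls by 1.98 percentage points (exact permutation p = 0.1), and the control mean was not subtracted from any of these values.

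**Figure D1:**
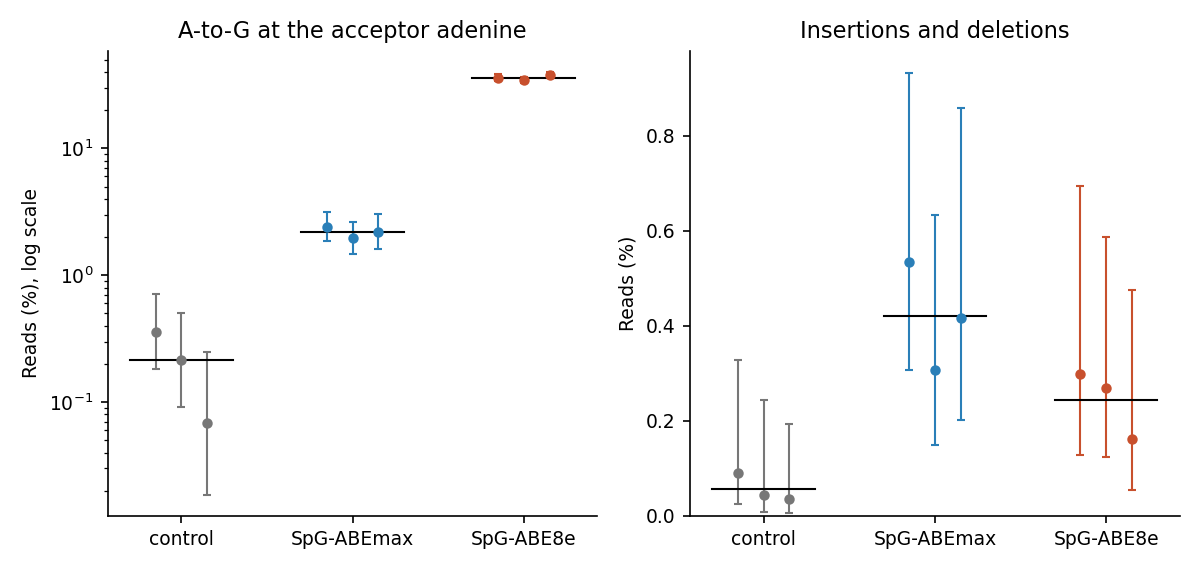
Left, the percentage of reads with A-to-G at the acceptor adenine on a log axis. Right, the percentage of reads with an insertion or deletion in the window on a linear axis. Points are samples with Wilson 95% intervals and black lines are group means. Editing does not overlap between the groups (lowest *Sp*G-ABE8e sample 34.6%, highest *Sp*G-ABEmax sample 2.41%), whereas the intervals of the indel shares of both editors do.

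The acceptor dinucleotide was no longer AG in 36.4%, 34.8% and 38.4% of reads with *Sp*G-ABE8e, in 2.85%, 2.28% and 2.62% with *Sp*G-ABEmax, and in 0.539%, 0.344% and 0.0681% in the controls. The groups again did not overlap, and the editors differed by 34.0 percentage points (exact permutation p = 0.1). With *Sp*G-ABE8e, 2078 of 2099 such reads carried A6G, 12 carried another base at position 6, 3 a substitution at position 7 and 6 a deletion. With *Sp*G-ABEmax, 136 of 160 carried A6G, 16 a deletion, 5 a substitution at position 7 and 3 another base at position 6. Deletions were thus a larger part of the acceptor loss with *Sp*G-ABEmax than with *Sp*G-ABE8e. This measure was added after the values had been seen.

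A few alleles held nearly all reads. The window was unchanged in 62.9%, 63.9% and 60.5% of reads with *Sp*G-ABE8e, in 95.7%, 96.4% and 96.4% with *Sp*G-ABEmax, and in 98.2%, 98.3% and 99.0% in the controls. The allele with A6G as its only change in the window came next in every group. It made up 35.1 ± 1.53% of reads with *Sp*G-ABE8e (SD, n = 3), 2.12 ± 0.289% with *Sp*G-ABEmax and 0.20 ± 0.148% in the controls. With *Sp*G-ABE8e this was followed by A6G with A13G, at 0.119%, 0.449% and 0.270% of reads, an allele seen in 0 reads of the other groups. The next alleles there were C-5A with 6 reads, A6C with 5 reads, and T1C and the pair of A-8G with A6C with 4 reads each over the 3 samples. With *Sp*G-ABEmax, C-5A, C5T and G7T had 4 reads each and A6C was 1 of 9 alleles with 3 reads. In the controls, C-5A had 13 reads, T14C had 6 reads, G9A had 5 reads, and A6C and C8T had 4 reads each. All of these were at a few reads, and C-5A had its highest mean in the controls.

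In all, 151 distinct window alleles were read, of which 94 were in 1 sample, 77 were a single read and 2 were in all 9 samples, the unchanged window and A6G. Compared at an equal depth of 1678 reads, the *Sp*G-ABE8e samples held 32.0, 31.9 and 37.1 alleles. The *Sp*G-ABEmax samples held 29.6, 25.9 and 21 alleles, and the controls 21.7, 20.98 and 13.7 alleles. Each *Sp*G-ABE8e sample held more than each *Sp*G-ABEmax sample, by 8.18 alleles on average (exact permutation p = 0.1). With alleles of a single read left out, the difference was -0.417 alleles (exact permutation p = 0.8), so its direction rests on alleles read once.

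Reads with the target edit mostly carried nothing else. With *Sp*G-ABE8e, 2078 reads with A6G fell into 36 alleles, and 2019 of these reads had no other change in the window, 55 had 1 other change and 4 had 2 other changes. Of the 35 alleles that combined A6G with another change, 27 were a single read, and 1 was in all 3 samples, that with A13G. With *Sp*G-ABEmax, 131 of 136 reads with A6G had no other change. Counted over the protospacer alone, A6G was the only change in 98.2%, 97.9% and 98.1% of edited *Sp*G-ABE8e reads and in 98.1%, 93.3% and 100% of edited *Sp*G-ABEmax reads. The groups overlapped (difference 0.924 percentage points, exact permutation p = 0.9). Without *Sp*G-ABEmax replicate 2, where 42 of 45 edited reads were clean, the difference was -0.989 percentage points.

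The other adenines were edited far less than the target. In *Sp*G-ABE8e samples A13G was in 3, 12 and 5 reads, or 0.179%, 0.539% and 0.270%, against 3, 0 and 0 reads with *Sp*G-ABEmax and 2, 1 and 0 reads in the controls. Each *Sp*G-ABE8e sample was above each sample of the other groups, with the least margin in replicate 1. A13G was nearly always on a read with the target edit. Of 20 reads with A13G in the *Sp*G-ABE8e samples, 19 also carried A6G (3 of 3, 11 of 12 and 5 of 5), while of 3 such reads with *Sp*G-ABEmax and 3 in the controls 0 did. Among reads with A6G, A13G was in 0.496%, 1.42% and 0.713%.

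A18G, A21G and A-8G stayed at counts of a few reads. A18G was in 0, 1 and 1 reads with *Sp*G-ABE8e, 0, 1 and 0 reads with *Sp*G-ABEmax and 1 read in each control. A21G was in 0 or 1 reads of every sample, with *Sp*G-ABE8e 1 read in all, *Sp*G-ABEmax 2 reads and the controls 1 read. A-8G was in 5 reads with *Sp*G-ABE8e, of which 4 were 1 allele of replicate 3 that also carried A6C. A change of the adenine in the PAM, or one that would change an amino acid, was thus not detectable above the controls at this depth. Editing at either of the other 2 adenines of the protospacer reached 0.362 ± 0.205% with *Sp*G-ABE8e (SD, n = 3), 0.0592 ± 0.0681% with *Sp*G-ABEmax and 0.0849 ± 0.0504% in the controls. *Sp*G-ABE8e was higher than *Sp*G-ABEmax by 0.303 percentage points and than the controls by 0.277 percentage points (exact permutation p = 0.1 for both), in 3 of 3 samples each. Without *Sp*G-ABE8e replicate 2 these differences were 0.192 and 0.166 percentage points. Replicate 1 of each group held 3 such reads, of 1680 with *Sp*G-ABE8e, 2244 with *Sp*G-ABEmax and 2226 in the controls. With alleles of a single read left out, the editors differed by 0.238 percentage points and overlapped (exact permutation p = 0.2). With alleles of at least 0.2%, both differences were 0.245 percentage points, again with overlap (exact permutation p = 0.4).

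**Figure D2:**
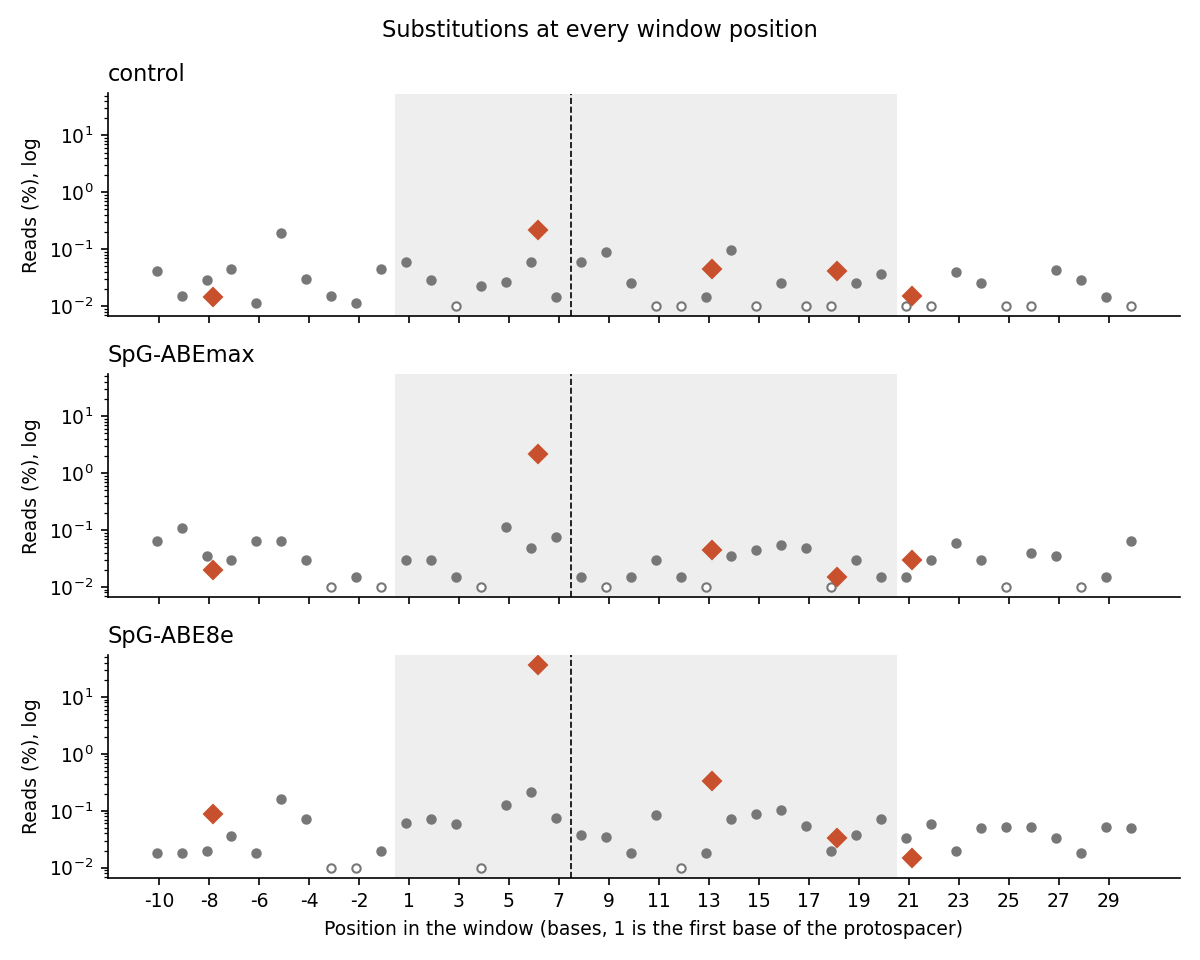
Percentage of reads with a substitution at each of 40 window positions, as the mean of 3 samples, on a log axis, with 1 panel per group. Diamonds are A-to-G at the adenines and circles all other substitutions at a position, drawn open at the lower edge where none was read. Grey shading is the protospacer and the dashed line the boundary of intron and exon. A6G lies far above the other points with *Sp*G-ABEmax (2.20%) and *Sp*G-ABE8e (36.2%), where A13G comes next at 0.329%. In the controls A6G, at 0.214%, lies close to the circle at position -5, most of which is C-5A at 0.169%.

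All 160 possible single-position changes of the window (3 substitutions and a deletion at each of 40 positions) were compared by whether the samples of a pair of groups overlapped. With *Sp*G-ABE8e, 16 changes (10% of those compared) were above all controls and 0 (0%) below. With *Sp*G-ABEmax, 31 (19.4%) were above all controls and 1 (0.625%), T14C, was below. *Sp*G-ABE8e was above *Sp*G-ABEmax for 4 changes (2.5%) and below for 3 (1.88%). Deletions at neighbouring positions share reads, and they made up 12 of the 16 changes, 28 of the 31 and all 3 of the last. Leaving out 1 sample makes overlap rarer by construction and moved these counts, to 40 above the controls and 11 above *Sp*G-ABEmax without *Sp*G-ABE8e replicate 1 and to 39 below *Sp*G-ABEmax without *Sp*G-ABEmax replicate 2.

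The substitutions of *Sp*G-ABE8e above both other groups were A6G, A13G, C16A and T29C. C16A was 1 read in each *Sp*G-ABE8e sample and 0 reads elsewhere, and T29C was 1 read in each and 1 read in *Sp*G-ABEmax replicate 2. Both therefore lie within the limit that 0 reads allow, and neither meets the naming rule. With *Sp*G-ABEmax, A6G, C5T and G-6A were above all controls, the last pair at 4 and 3 reads over 3 samples. C-5A was the most frequent substitution of the controls after A6G, in 1, 6 and 6 reads. It was in 1, 2 and 1 reads with *Sp*G-ABEmax and in 0, 6 and 4 reads with *Sp*G-ABE8e, so its ranges overlapped across all groups.

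Bases other than adenine changed in few reads. A cytosine of the protospacer was read as another base in 7, 10 and 8 reads with *Sp*G-ABE8e, or 0.417%, 0.449% and 0.431%. It was so in 0.401%, 0.176% and 0.238% of reads with *Sp*G-ABEmax and in 0.0898%, 0.0859% and 0.239% in the controls. *Sp*G-ABE8e lay above both (by 0.161 and 0.294 percentage points, exact permutation p = 0.1 for both), whereas *Sp*G-ABEmax and the controls overlapped (exact permutation p = 0.3). With alleles of a single read left out, these differences of *Sp*G-ABE8e fell to 0.0306 and 0.0265 percentage points (exact permutation p = 1 for both), so most of them rests on alleles read once. Counting only cytosines read as thymine, the change that cytosine deamination would give, the difference between the editors was 0.0374 percentage points (exact permutation p = 1) and that between *Sp*G-ABE8e and the controls 0.106 percentage points (exact permutation p = 0.3). T-to-C anywhere in the window, which is A-to-G on the other strand, was at 0.389 ± 0.188%, 0.192 ± 0.0263% and 0.239 ± 0.119% of reads (SD, n = 3) in *Sp*G-ABE8e, *Sp*G-ABEmax and control samples. Any substitution other than A6G was in 2.26 ± 0.456%, 1.33 ± 0.224% and 1.25 ± 0.314% of reads in the same order.

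Other substitutions were also compared between edited and unedited molecules of the same *Sp*G-ABE8e sample. Without A13G they were in 2.15%, 1.55% and 2.28% of reads with A6G and in 1.21%, 1.85% and 2.17% of reads without it, lower on edited reads in replicate 2. The pair of intervals of each sample overlapped (in replicate 1, 1.26% to 3.64% and 0.708% to 2.06%). With A13G counted among them the shares were 2.48%, 2.85% and 3.00% against 1.21%, 1.92% and 2.17%, higher on edited reads in 3 of 3 samples. In replicate 2 this order rests on A13G, whereas in replicates 1 and 3 it held without A13G. Substitutions in the amplicon beyond the window were in 9.35%, 9.29% and 10.6% of *Sp*G-ABE8e reads, 8.96%, 9.36% and 8.34% of *Sp*G-ABEmax reads and 9.48%, 8.47% and 8.52% of control reads, and these ranges overlapped.

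Insertions and deletions were rare with both editors. With *Sp*G-ABE8e, 5, 6 and 3 reads had one, or 0.298%, 0.269% and 0.162%. With *Sp*G-ABEmax 12, 7 and 7 reads did, or 0.535%, 0.308% and 0.417%, and in the controls 2, 1 and 1 reads, or 0.0898%, 0.0430% and 0.0341%. The samples of the 3 groups did not overlap, and *Sp*G-ABEmax was highest. *Sp*G-ABE8e exceeded the controls by 0.187 percentage points and *Sp*G-ABEmax by 0.364 (exact permutation p = 0.1 for both). With alleles of a single read left out the former fell to 0.0403 percentage points (exact permutation p = 1), and among reads in which the target base was present they were 0.106 and 0.127 percentage points. The editors differed by -0.177 percentage points (*Sp*G-ABE8e minus *Sp*G-ABEmax, exact permutation p = 0.1), although the counting intervals of their samples overlapped. Among reads in which the target base was present the difference was -0.0205 percentage points (exact permutation p = 0.8), so most of it lay in deletions that include the target.

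Deletions with *Sp*G-ABEmax were mostly long and covered both the acceptor and the predicted cleavage site, which lies between positions 17 and 18. Of 26 reads with a deletion, 16 lacked the target adenine, 18 touched the cleavage site and 15 spanned both. The median number of deleted bases in the amplicon was 30 in these reads, and the longest 67. With *Sp*G-ABE8e, 12 reads had a deletion, of which 6 lacked the target, 5 touched the cleavage site and 3 spanned both, and the median was 28 bases. Counting only indels that touch the 6 bases around the cleavage site, *Sp*G-ABE8e minus *Sp*G-ABEmax was -0.188 percentage points (exact permutation p = 0.2). By that count the samples of the editors overlapped. Of the 4 control reads with a deletion, 2 lacked a single base. Of all reads with an insertion or deletion, 1 also carried A6G, a deletion of the base at position -9 in *Sp*G-ABE8e replicate 2. Reads that lack the target, 6 with *Sp*G-ABE8e, 16 with *Sp*G-ABEmax and 2 in the controls, cannot carry A6G. The count therefore does not show whether edits and indels exclude each other.

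**Figure D3:**
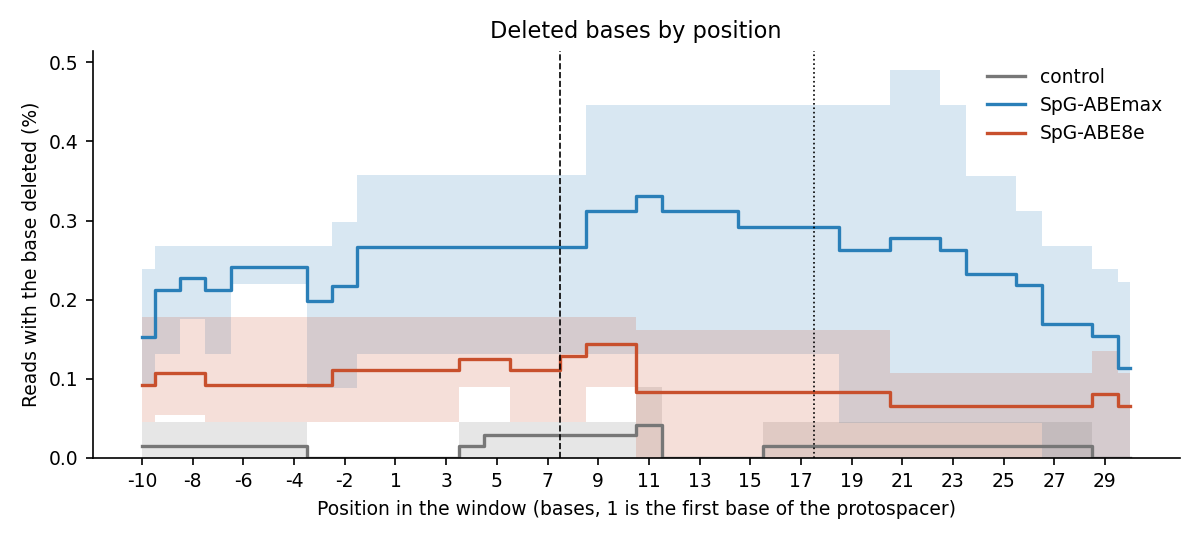
Percentage of reads in which each window position was deleted. Lines are means of 3 samples, and shading runs from the lowest to the highest sample. The dashed line is the boundary of intron and exon and the dotted line the predicted cleavage site. The *Sp*G-ABEmax mean lies above the others at every position and is highest at position 11, at 0.332%, where *Sp*G-ABE8e is at 0.0839%.

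A deletion of 27 bases from position -1 to 26 (chr10:79694578-79694604) was 1 read in each *Sp*G-ABEmax sample, the only indel allele found in all 3 samples of a group. It removes the end of the pyrimidine tract, the acceptor and the first bases of the exon. The bases gctct stand directly before it and again at its end, a repeat of 5 bases, so the same product could also be written with its ends shifted. Loss of the whole window was 1 read in each of *Sp*G-ABE8e replicates 2 and 3, and in 2 reads of *Sp*G-ABEmax replicate 3. Loss of 1 guanine at position 11, in a run of guanines, was in 1 read of controls 1 and 3 and of *Sp*G-ABEmax replicate 3. No other deletion was in more than 1 sample of a group. Within the window, 9 deletion alleles longer than 1 base had both ends, and 2 of these had a repeat of 2 bases or more at their ends. Insertions were 2 reads in *Sp*G-ABE8e replicate 1, a guanine after position 7 and a cytosine after position 16.

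The exon 3 acceptor lay between 2 other *Ptbp1* sites targeted with the same editors in the same line, each with 3 samples a group. Those samples held 399 to 8029 reads. At the exon 7 acceptor, where the target adenine is also at position 6, *Sp*G-ABE8e gave 17.8%, 15.2% and 10.8% and *Sp*G-ABEmax 0.0423%, 0.579% and 0.262%. At the exon 3 donor, at the other end of the same exon, they gave 94.0%, 92.1% and 92.5%, and 73.3%, 71.0% and 71.0%. Neither site overlapped the exon 3 acceptor with either editor (exact permutation p = 0.1 for each of the 4 comparisons). The gain of *Sp*G-ABE8e over *Sp*G-ABEmax was 34.0 percentage points here, 14.3 at the exon 7 acceptor and 21.1 at the exon 3 donor. Exchanging the editor labels within each site, over 400 arrangements, gave an exact permutation p of 0.16 for the difference from the exon 7 acceptor and of 0.55 for that from the donor. The editors separated in the same direction at each site, so no p of this kind could fall below 0.1 for editing. Such a p does not decide whether the gains differ. As a log2 ratio of means the gain was 4.04 here, 5.63 at the exon 7 acceptor and 0.37 at the donor, so its order against the exon 7 acceptor turns with the scale (exact permutation p = 0.46).

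By-products were compared at the same sites. Of edited *Sp*G-ABE8e reads, 98.1% had A6G as the only protospacer change here, and 21.01%, 19.1% and 22.8% had only the target edit at the exon 7 acceptor, with no overlap (exact permutation p = 0.1). At the donor that share was 97.4%, 97.0% and 97.4%. The exon 7 protospacer holds another adenine at position 4, near its target, whereas the nearest other protospacer adenine here is at position 13. With *Sp*G-ABE8e, guanine at any other protospacer adenine was in 17.2%, 14.8% and 9.91% of exon 7 reads. The shares of the acceptors therefore count unlike sets of adenines. Indels ran the other way at the acceptors. *Sp*G-ABE8e had fewer than *Sp*G-ABEmax here, by 0.177 percentage points in the means, while at the exon 7 acceptor it had 0.529%, 0.459% and 0.237% against 0.0282%, 0.116% and 0.0437%. At the donor *Sp*G-ABE8e had 0.270%, 0.486% and 0.478% and *Sp*G-ABEmax 1.08%, 0.729% and 0.743%, the same order as here. The difference between the gains of the acceptors was -0.523 percentage points, with an exact permutation p of 0.005, the smallest that 400 arrangements can give. Labels were exchanged within each acceptor, so this p follows whenever the editors separate fully and in opposite directions, whatever the size. It restates those separations and does not test whether the gains differ. The indel difference of the acceptors was 1 of 4 comparisons of by-product gains made after the values had been seen.

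**Figure D4:**
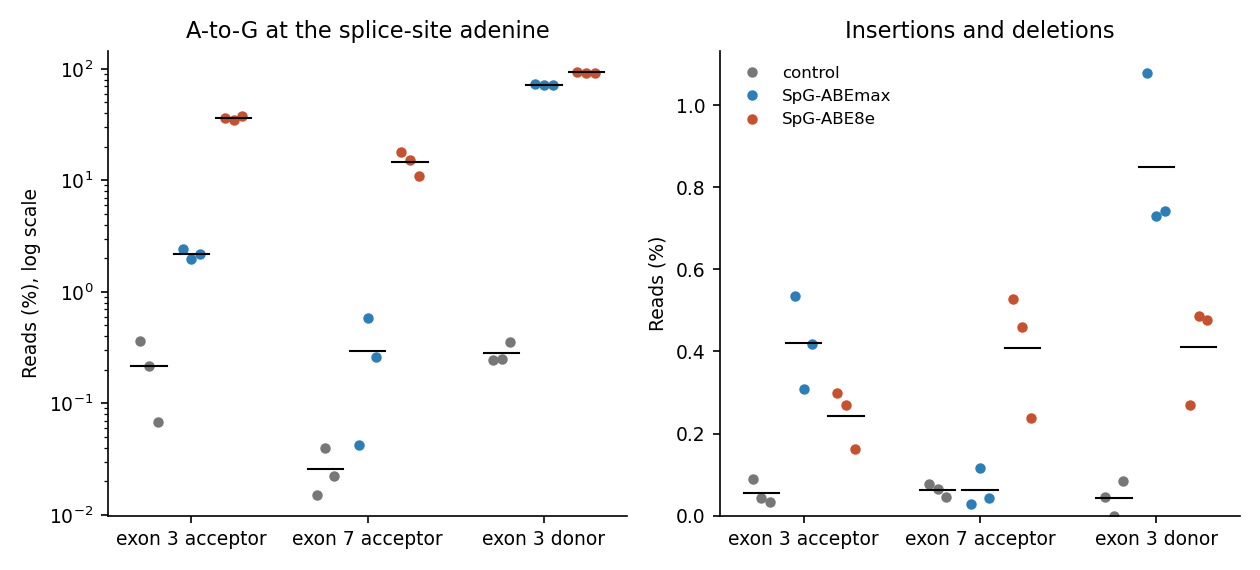
Left, percentage of reads with A-to-G at the splice-site adenine on a log axis, and right, percentage with an insertion or deletion on a linear axis, for 3 sites. Points are samples, coloured by group, and black lines are means of 3 samples. At the exon 3 acceptor *Sp*G-ABE8e is highest in editing and *Sp*G-ABEmax in indels (means 0.243% and 0.420%), whereas *Sp*G-ABE8e is highest in both at the exon 7 acceptor.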

How the data were processed

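The sites were amplified from genomic DNA by PCR in 2 rounds and read in pairs on a MiSeq instrument. The authors aligned the reads with CRISPResso2 (version and settings not given in the sources used here) to an amplicon of 204 bases. Each deposited row is an allele of a window of 40 bases with its raw count of reads. The rows also hold the deposited percent of the table's reads and the count of deleted, inserted and substituted bases. Those numbers are not limited to the window. No depth filter was applied, and rows with an insertion were placed by their own reference bases. Editing is the percentage of all reads with guanine at the target. The sample was the unit of each test, and the alternatives were allele minimums of 2 reads and of 0.2%, other denominators, other definitions of each measure, samples left out and a replicate block.

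The window and the protospacer were matched to GRCm39 with the GENCODE annotation. A build for these amplicons is not given in the sources used here; mm39, the same assembly, is named for another assay of the study. The samples labelled with sgRNA 2 match the oligo that the study numbers 3, so the site was taken from the deposited reference sequence. ABE in the labels was read as ABEmax, a name that neither these labels nor the main text of the paper gives. Of the window changes other than A-to-G, those were named whose mean in edited cells passed the highest control by over 0.1 percentage points or whose control mean was over 0.1%, with the 6 commonest alleles of each group (ties were added) and indel alleles of at least 2 samples. The few others are named as exceptions. The comparisons, lists and naming rule were chosen with earlier results of these data known.

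Calculations used Python 3.11.15, numpy 2.4.6, scipy 1.17.1, pandas 2.3.3, biopython 1.88 and matplotlib 3.10.9, and were tested on 60 simulated tables of 2000 reads, in all of which the simulated counts were recovered. The simulated reads held A6G, A13G, a cytosine change and a fixed short deletion. Insertions, deletions of the target and deletions that reach the end of the window were not simulated. Replicate numbers follow the sample titles. Those in the deposited file names differ for the 6 edited samples, by the same shift in both editors. The replicate names depend on this choice, as do the pairing and block p-values of either editor with the controls. The pairing of the editors with each other does not. Same-numbered samples were not treated as paired: the correlations of their deviations from the group means ranged from -0.578 to 0.362. No 2 tables were identical, and replicates shared 7 to 10 alleles. A chi-square test of unchanged, edited and other reads between replicates, with the read as unit, gave p from 0.0136 to 0.823. The lowest was between controls 1 and 3. Because copies by PCR may count as separate reads, this test cannot decide whether replicates are independent. Each was kept as a sample, as the labels give it.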

Additional observations from a re-analysis of the deposited data

Results flagged for a closer look

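The indel gain of *Sp*G-ABE8e over *Sp*G-ABEmax had opposite signs at the acceptors, -0.177 percentage points at exon 3 and 0.346 at exon 7. The difference of -0.523 percentage points gave an exact permutation p of 0.005. That p follows from full separation in opposite directions at the acceptors and does not test whether the gains differ. At exon 3 the difference rests on indels in 14 reads of the 3 *Sp*G-ABE8e samples and in 26 reads of the 3 *Sp*G-ABEmax samples. Leaving out 1 sample gave -0.608 to -0.462, and alleles of at least 2 reads -0.390. Against the exon 3 donor the difference of indel gains was 0.262 percentage points (exact permutation p = 0.365).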

How the results depend on the processing

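Depth limits these results: a count of 0 allows up to 0.179% of reads, about the level of the indels and of A13G, and 3 samples against 3 cannot give p below 0.1. Of 238 alternative values with a test, 229 kept their direction, those of the target edit and of the loss of the acceptor all included. Many of these could not turn, so the count is no measure of stability. Leaving out 1 sample cannot reverse groups that do not overlap. Subtracting the control mean of each site, tried for the gains, cancels between the editors. The replicate block leaves a difference as it is by arithmetic, such as 34.0 percentage points for editing between the editors and -0.177 for indels, so it says nothing of stability; its exact p was 0.25 or more, the smallest it can give. Indels of *Sp*G-ABE8e exceeded the controls by 0.0887 percentage points when only those touching the 6 bases around the cleavage site were counted. At positions 3 to 9 the cytosine differences of *Sp*G-ABE8e were 0.0779 from *Sp*G-ABEmax and 0.134 from the controls. With alleles of at least 2 reads, directions turned for bystander (0.0149 percentage points) and cytosine changes (-0.00417) of *Sp*G-ABEmax against the controls, for the clean share (-0.974) and for the number of alleles (-0.417). The clean share also turned with alleles of at least 0.2% (-0.682) and with other adenines only (-0.969). Leaving out 1 sample, it ranged from -0.989 to 2.34 and the bystander difference of *Sp*G-ABEmax and controls from -0.0630 to 0.00388. The gain against the exon 7 acceptor turned as a log2 ratio (-1.59). In reads without a gap, the changes of *Sp*G-ABE8e below *Sp*G-ABEmax were 0, those of *Sp*G-ABE8e above the controls 5 and those of *Sp*G-ABEmax above the controls 3. Leaving out 1 sample, the counts of *Sp*G-ABE8e were 4 to 11 above *Sp*G-ABEmax, 3 to 39 below it, 16 to 40 above the controls and 0 to 2 below them, and those of *Sp*G-ABEmax 1 to 4 below the controls. Indels could not be computed in reads without a gap, and there is no other adenine at positions 3 to 9. With alleles of at least 0.2%, no indel, cytosine change or *Sp*G-ABEmax bystander was left. The cause of these changes was not tested.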
